A study of Arabidopsis thaliana with 434 samples.

Results

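ANAC001 (locus AT1G01010), ANAC004 (AT1G02230) and ANAC048 (AT3G04420) are members of the NAC family of plant transcription factors. They were chosen by locus, with earlier results of these data known, and are 3 of the 49 NAC genes that a custom probe set counted in leaves of Arabidopsis thaliana. All 3 passed the filter on low counts, as did 47 of the 49 genes. RefSeq's gene list for TAIR10.1 places ANAC001 and ANAC004 on chromosome 1 and ANAC048 on chromosome 3. Among protein-coding genes ANAC004 lies there between NAC003 and NAC005, and ANAC048 beside NAC049, family members that are not on the panel; whether the probes also bind their transcripts was not tested.

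NAC proteins share a conserved DNA-binding domain at their amino-terminal end, named after NAM, ATAF and CUC, and a more variable carboxy-terminal part that activates or represses transcription. Several members of the family are known to speed or slow leaf senescence, the ordered breakdown of an ageing leaf before it dies, and NAC genes are often targets of other NAC proteins. ANAC001, ANAC004 and ANAC048 themselves are among the little characterised members, so no role is given for them below.

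Transcripts were counted in a NanoString nCounter, where a coloured probe binds each RNA molecule and nothing is amplified, in 434 samples of total RNA from leaf. Wild type was the Columbia ecotype (Col), with 10 samples at a leaf age of 14 d and 8 each at 18, 22 and 26 d; no group has a treatment in the labels. The other samples came from 49 T-DNA insertion lines in Columbia, taken from SALK, SAIL or GABI-KAT stocks and named after the NAC gene they target: 4 samples at each age for anac092 and 2 for each of the other 48. Each title ends in a letter (A, B, C or D) and a number that the labels leave unexplained; Col stood under every letter, anac001 under B, and anac004 and anac048 under C. The labels give 1 line per gene and do not say where its insertion lies, nor whether replicate samples were taken from different plants; p-values therefore measure only how far these samples differ, and that spread may be technical. For a normalised count, raw counts were divided by the sample's mean over 4 reference genes (UBQ10, TUB2, ACT7 and ACT2) and multiplied by the average of those means over all samples. A leaf holds many cell types, so fewer cells of a type and less RNA per cell cannot be told apart.

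Libraries held between 31613 and 687229 counts in total (median 225519). Of the libraries of lines, 25 held under 100000 counts, among them the first samples of anac001 at 14 and 18 d, and 0 of the Col libraries did. At 18 d, the libraries labelled anac053 A1 and anac055 A1 go against their labels. The first held 212 normalised counts of ANAC053 and 3.86 of ANAC055, and the second 5.35 and 163, where Col held 158 to 324 and 57.7 to 272. The effects on the 3 genes that passed the test lay in other lines, and kept their direction and call once those labels were exchanged, which was tried after the data had been seen.

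The first comparison follows the 3 transcripts through the ageing of the wild-type leaf. Relative to the reference genes all 3 were higher in old than in young leaves, while with TMM or DESeq2 scaling ANAC001 lay slightly below its 14 d level. ANAC048 was called higher from 18 d on, with no later step past the test, and ANAC001 and ANAC004 from 22 d on; differences between the genes were not tested. From 14 to 26 d the log2 change relative to the reference genes was 0.70 for ANAC001, 1.49 for ANAC004 and 1.31 for ANAC048.

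ANAC001 ran from 89.8 to 228 normalised counts in Col at 14 d with a median of 164, from 69.0 to 196 at 18 d with a median of 149, from 146 to 250 at 22 d with a median of 196, and from 138 to 297 at 26 d with a median of 251. The means were 157 ± 47.4 (SD, n = 10), 143 ± 42.6, 198 ± 29.9 and 241 ± 48.9 (SD, n = 8 at each later age). Ages overlapped throughout, and 6 of the 8 samples of 26 d lay above every sample of 14 d. In the quasi-likelihood test of edgeR, adjusted over 47 genes after Benjamini and Hochberg, ANAC001 was higher at 22 d than at 14 d (log2 change 0.43, SE 0.15, adjusted p = 0.0046) and at 26 d than at 14 d (0.70, SE 0.15, adjusted p = 4.5e-06). The neighbouring ages 14 and 18 d (log2 change -0.06, edgeR adjusted p = 0.769) and 22 and 26 d (0.27, adjusted p = 0.151) did not pass the test, while 18 and 22 d did (0.50, adjusted p = 0.0034).

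ANAC004 ran from 23.3 to 151 normalised counts at 14 d with a median of 74.8, and from 46.2 to 104 at 18 d with a median of 83.7. At 22 d it ran from 94.9 to 213 with a median of 154, and at 26 d from 72.0 to 299.9 with a median of 215. The means were 77.5 ± 40.5 (SD, n = 10), 80.7 ± 22.9, 153 ± 42.2 and 199 ± 75.8 (SD, n = 8 each), so the levels of 14 and 18 d were close and those of 22 and 26 d stood above them with partial overlap. Against 14 d the log2 change was 0.24 at 18 d (edgeR adjusted p = 0.608), 1.12 at 22 d (SE 0.29, adjusted p = 1.9e-04) and 1.49 at 26 d (SE 0.29, adjusted p = 7.8e-07). From 18 to 22 d it rose by 0.89 (edgeR adjusted p = 0.0071), and the step from 22 to 26 d did not pass the test (0.37, adjusted p = 0.295).

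ANAC048 ran from 49.7 to 165 normalised counts at 14 d with a median of 108, and from 140.1 to 415 at 18 d with a median of 231. At 22 d it ran from 222 to 385 with a median of 285, and at 26 d from 184 to 279 with a median of 263. The means were 109 ± 34.9 (SD, n = 10), 247 ± 93.5, 291 ± 58.3 and 255 ± 31.3 (SD, n = 8 each). All 8 samples of 22 d and all 8 of 26 d lay above every sample of 14 d, as did 6 of 8 at 18 d. Against 14 d the log2 change was 1.19 at 18 d (SE 0.16, edgeR adjusted p = 1.8e-11), 1.50 at 22 d (SE 0.16, adjusted p = 3.8e-17) and 1.31 at 26 d (SE 0.16, adjusted p = 3.3e-14). Between the 3 later ages no step passed the test: 0.31 from 18 to 22 d (edgeR adjusted p = 0.068), -0.19 from 22 to 26 d (0.298) and 0.11 from 18 to 26 d (0.495).

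**Figure D1:**
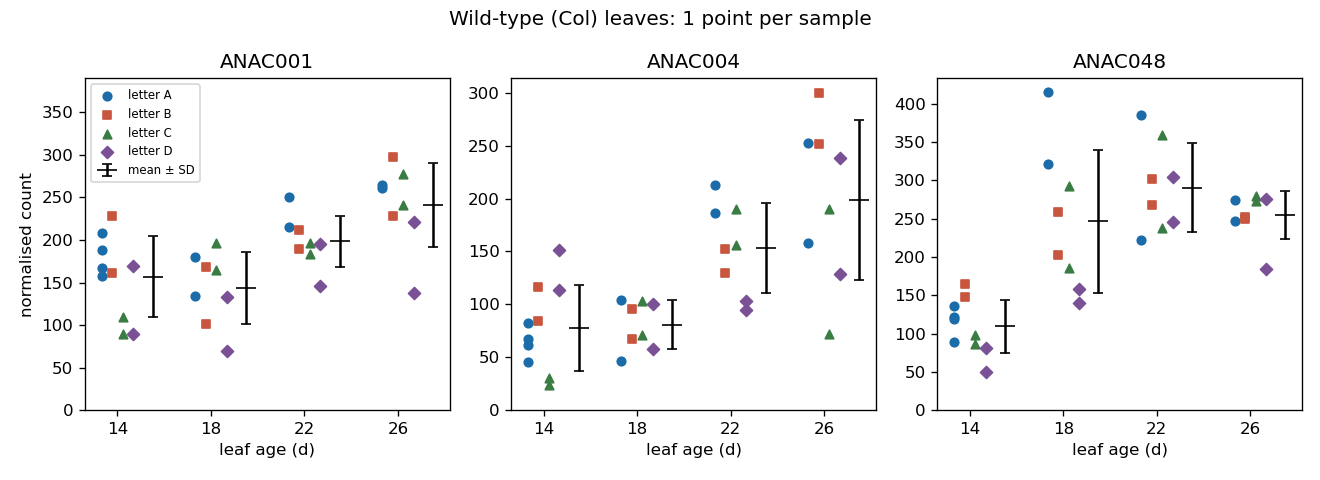
Normalised counts of ANAC001, ANAC004 and ANAC048 in wild-type leaves (vertical axes, each from 0) against leaf age in days, 1 point per sample with the title letter as colour and shape and the mean ± SD in black (n = 10 at 14 d and 8 later). ANAC048 is high from 18 d on, and ANAC001 (on this scale, not with TMM or DESeq2) and ANAC004 are higher at 22 and 26 d; the letter C samples of ANAC004 are the lowest at 14 d.

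At 18 d, 25.5% of the 47 genes tested were called higher than at 14 d, and ANAC048 was the only one of the 3 among them. At 22 and 26 d the background was 78.7% and 83.0%, and 3 of 3 were called, a share near the background. By size, ANAC048 ranked 3 of 47 at 18 d, 11 at 22 d and 20 at 26 d. ANAC004 ranked 18, 16 and 17, and ANAC001 34, 31 and 32, below the median of all genes, which was 0.14, 0.78 and 1.12 on the log2 scale at the successive ages. The change relative to that median at 26 d was -0.42 for ANAC001, 0.37 for ANAC004 and 0.18 for ANAC048.

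The direction for ANAC001 depended on the scale. With TMM, which scales on the NAC genes themselves and moves the median of all genes by -0.58 at 22 d and -0.82 at 26 d, the log2 change of ANAC001 was -0.12 (edgeR adjusted p = 0.326) and -0.10 (adjusted p = 0.418). The size factors of DESeq2 also come from the NAC genes themselves and move that median by -0.65 and -0.94. With them the log2 change of ANAC001 was -0.20 (DESeq2 adjusted p = 0.112) and -0.22 (adjusted p = 0.055). ANAC004 kept its direction under both, at 0.66 with TMM at 26 d and 0.55 with DESeq2, where it no longer passed the test (DESeq2 adjusted p = 0.054; 0.50 and 0.094 at 22 d). ANAC048 was called higher under both at all later ages, with 0.49 (TMM) and 0.38 (DESeq2) at 26 d.

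**Figure D2:**
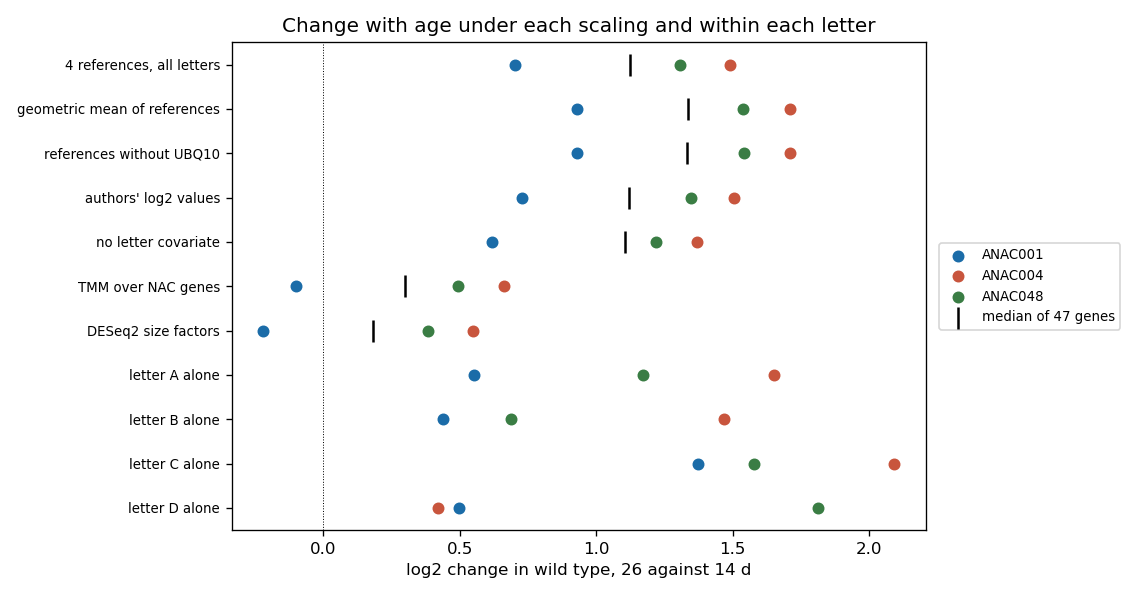
Log2 change from 14 to 26 d in wild type (horizontal axis) of the 3 genes (coloured points) and the median of the 47 genes tested (black bars) under 7 ways of scaling or fitting, and the difference of mean log2 normalised counts within each letter. ANAC001 lies below 0 with TMM (-0.10) and DESeq2 (-0.22) and above 0 in all other rows; ANAC004 and ANAC048 lie above 0 in every row shown.

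Within single letters, each with 2 Col samples at an age (4 at 14 d in A), all 3 genes were higher at 26 than at 14 d under every letter, by unequal amounts and with no test at this size. ANAC001 differed by 0.44 to 1.37 log2, with 1.37 under C, and ANAC048 by 0.69 under B to 1.81 under D. For ANAC004 letter A gave 1.65, B 1.47, C 2.09 and D 0.42. At 14 d the letter means of ANAC004 in Col were 64.2 normalised counts under A, 27.0 under C and 132 under D, a wider spread than at 18 d, where they ran from 75.2 to 87.1.

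The gene list chosen for comparison, 6 other NAC genes whose proteins are tethered to membranes until a stress releases them, was called higher in 1 of 6 at 18 d and in 6 of 6 at 22 and 26 d, with a median log2 change of 0.50 at 26 d against 1.12 over all genes. Of 13 NAC genes known as promoters of senescence, 5 were called higher at 18 d and 13 at both later ages, with a median of 1.87 at 26 d. ANAC016, ANAC053 and NTL9 stood on both lists. Over all 47 genes the shares called higher were 25.5%, 78.7% and 83.0% at the successive ages. NAC markers of xylem and phloem, cell types present in leaves, moved with age in the same Col samples. Of the 4 tested xylem NACs, 3 were lower and 1 higher at 26 d, and the sum of all 5 ran from 303 to 605 normalised counts at 14 d and from 348 to 896 at 26 d. The sum of the phloem NACs ANAC045 and ANAC086 ran from 51.2 to 90.0 at 14 d and from 5.08 to 18.1 at 26 d. Only 1 of these 2 genes passed the filter on low counts. No marker of either list was at 0 in all samples of an age. A negative control probe held 5.19 raw counts on average, so counts this low need not show the transcript. The part of the xylem and phloem markers in the ageing of the 3 genes was not tested.

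In the 34 Col samples, ANAC001 followed ANAC053 (Pearson's r = 0.88, rho = 0.90), ANAC042 (0.85, rho = 0.89) and ANAC016 (0.84, rho = 0.86) most closely, against a median r of 0.57 over its 46 partners. ANAC053 and ANAC016 are membrane-tethered NACs, and ANAC042, or JUB1, prolongs leaf life. ANAC004 followed ANAC061 (r = 0.82, rho = 0.77), ANAC017 (0.81, rho = 0.84) and ANAC042 (0.79, rho = 0.78), against a median of 0.68. ANAC048 followed ANAC059 (r = 0.88, rho = 0.73), also named ORS1 and a promoter of senescence, ANAC056 (0.86, rho = 0.77) and ANAC021 (0.83, rho = 0.70), against a median of 0.54. These samples share the age series, the letters and the reference scale, so the values are descriptions. With the mean of each age taken out, ANAC053 (0.80) stayed first for ANAC001, ANAC061 (0.69) for ANAC004, and ANAC056 (0.63) took the first place for ANAC048. Among the 3 genes themselves, r was 0.67 for ANAC001 with ANAC004, 0.53 for ANAC001 with ANAC048 and 0.46 for ANAC004 with ANAC048, and 0.45, 0.59 and 0.02 with the age means taken out.

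The next question was whether the lines named after the 3 genes had lost the transcript. The answer differed between them: ANAC001 was reduced to between 7.43% and 12.4% of wild type in anac001, ANAC004 was not called lower at any age in anac004, and ANAC048 lay above wild type in anac048 at 14 d. Where insertions and probes lie was not stated in the labels, and a probe that binds outside the interrupted stretch gives no check of the loss. The lines of the latter pair are therefore called the lines labelled anac004 and anac048.

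In anac001 the samples held 5.01 and 17.9 normalised counts of ANAC001 at 14 d, then 6.25 and 19.5 (18 d), 23.0 and 14.9 (22 d), and 19.6 and 19.6 (26 d). Col of the same letter held 228 and 161, 102 and 168, 212 and 190, and 228 and 297 at the successive ages, so that every sample of the line lay below every Col sample of its age. As shares of Col of the letter, the summed counts gave 7.43% at 14 d (95% exact Poisson interval 4.65 to 11.2), 12.4% at 18 d (7.08 to 20.1), 9.97% at 22 d (6.51 to 14.6) and 7.66% at 26 d (5.67 to 10.1); these intervals cover counting error only. By edgeR the log2 change was -3.88, -3.24, -3.41 and -3.76, each with an adjusted p of 1.4e-14 or below over 188 tests, and -3.57 averaged over the ages (SE 0.18, adjusted p = 7.7e-50). The first samples of 14 and 18 d held only 2 raw counts each, under the mean count of the negative control probes in the anac001 libraries of those ages (3.62 and 3.12), so the measured size of the loss is limited by background. Without the second sample of each line (the first alone) the log2 change was -5.29 at 14 d and -4.33 at 18 d, and without the shallow libraries, a setting chosen after seeing the data, it was -3.44 and -2.81. No change of the loss with age passed this test (log2 change 0.11 from 14 to 26 d, edgeR adjusted p = 0.952); with limma on the authors' deposited log2 values one did (1.29, limma adjusted p = 0.044).

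In the line labelled anac004, ANAC004 stood at 69.4 and 56.2 normalised counts at 14 d, where Col of the same letter held 30.6 and 23.3 and all Col ran from 23.3 to 151. At 18 d the line held 87.7 and 93.5 against 103 and 71.4, at 22 d 155 and 83.7 against 156 and 190.2, and at 26 d 58.3 and 69.0 against 72.0 and 191. The line samples thus lay above Col of their letter at 14 d, between them at 18 d and below both at 22 and 26 d. At 26 d both also lay below all 8 Col samples. By edgeR none of the 4 ages passed the test: the log2 change was 1.21 (adjusted p = 0.084), 0.07 (0.915), -0.55 (0.432) and -1.04 (0.140), and -0.08 averaged (SE 0.31, adjusted p = 0.824). The difference between 26 and 14 d did (-2.25, SE 0.88, edgeR adjusted p = 0.041). That call ended under several settings: without Col C1 of 14 d (-2.46, edgeR adjusted p = 0.061), Col C2 of 14 d (-2.06, 0.144), Col C2 of 26 d (-1.40, 0.354), the first sample of each line (-1.98, 0.058), or the letter covariate (-1.35, 0.148). It also ended with a geometric reference mean (-2.18, edgeR adjusted p = 0.073), no UBQ10 (-2.11, 0.091), a filter at 100 counts (-2.25, 0.051) and limma on background-subtracted counts (-2.27, limma adjusted p = 0.060) or the authors' values (-2.32, 0.058). Without Col C1 of 26 d, ANAC004 was called lower at 26 d (-1.59, edgeR adjusted p = 0.047), as it was without the letter covariate (-1.65, adjusted p = 0.0047), and without the second sample of each line it was called higher at 14 d (1.37, adjusted p = 0.037). Leaving out a sample of each line leaves 1 library per line and age, which here and below is assumed to vary like the groups that keep several.

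In the line labelled anac048, ANAC048 stood at 388 and 442 normalised counts at 14 d, where Col of the same letter held 97.8 and 86.3 and all Col ran from 49.7 to 165. At 18 d the line held 319 and 389 against 292 and 186, at 22 d 465.9 and 329.6 against 359 and 238, and at 26 d 306 and 386 against 273 and 279. The line was thus as high at 14 d as at the later ages, while Col of the letter rose. At 14 and at 26 d both line samples lay above every Col sample of the age. The log2 change was 2.17 at 14 d (SE 0.32, edgeR adjusted p = 2.1e-09), 0.57 at 18 d (adjusted p = 0.118), 0.41 at 22 d (0.267) and 0.33 at 26 d (0.383). Averaged over the ages it was 0.87 (SE 0.16, edgeR adjusted p = 3.5e-07), and the difference between 26 and 14 d was -1.85 (SE 0.46, adjusted p = 6.2e-04). The calls at 14 d, for the average and for the difference held without each Col sample and each line replicate in turn, with -1.94 to -1.76 for the difference. Without Col C1 of 18 d, ANAC048 was also called at 18 d (0.93, edgeR adjusted p = 0.042).

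**Figure D3:**
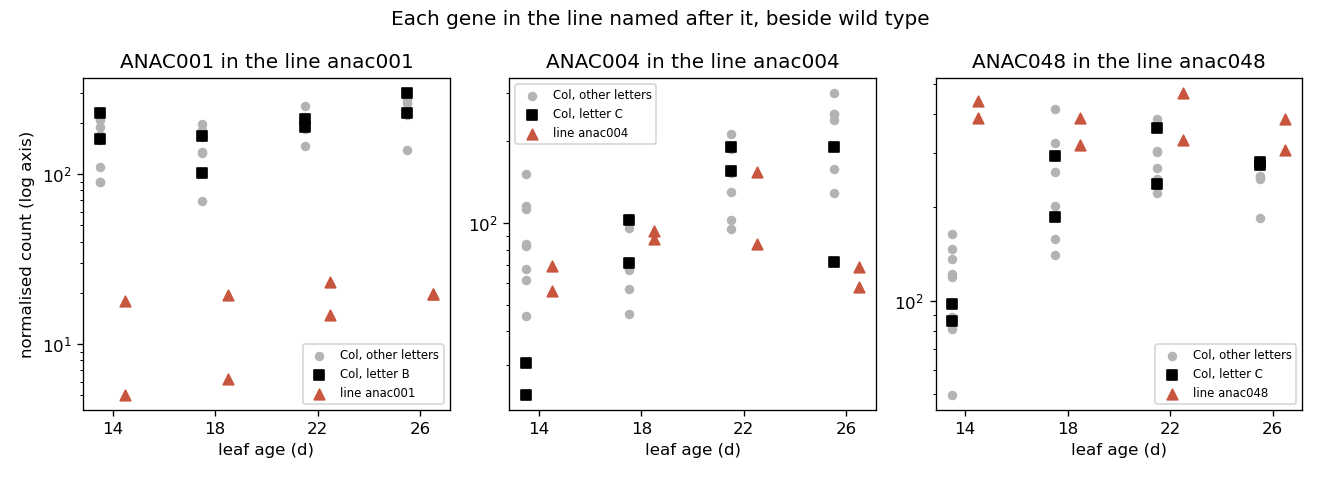
Normalised counts (log axes) of each gene against leaf age in days, in the line named after it (red triangles, 2 samples an age), in Col of the same letter (black squares) and in Col of the other letters (grey). ANAC001 in anac001 lies below all Col samples at every age, ANAC004 overlaps Col at 14 to 22 d, and ANAC048 at 14 and 26 d lies above all Col samples.

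Over the 188 tests of a line on its own target, 42.0% were called lower and 17.6% higher; the 3 lines gave 4 of 12 lower, all in anac001, and 1 of 12 higher, that of ANAC048 at 14 d. For the average over ages, 53.2% of the 47 lines were called lower and 23.4% higher, against 1 of 3 each here. The change of the own effect from 14 to 26 d was called in 27.7% of the 47 lines, against 2 of 3 here. From the lowest averaged own effect upwards, ANAC001 ranked 8, ANAC004 30 and ANAC048 37 of 47.

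Effects of the 3 lines on each other's gene were looked for next. None of the 24 tests over ages, nor any of the 6 averaged ones, passed the edgeR test adjusted over 2256 pairs of a line and a gene it does not target. ANAC048 in anac001 at 14 d had the smallest unadjusted p among them (0.019). The line held 97.7 and 94.0 normalised counts there, against 147 and 165 in Col of the letter, a log2 change of -0.75 (SE 0.31, edgeR adjusted p = 0.439). Of the 24 tests over ages this one alone had an unadjusted p under 0.05. The averaged effect of anac001 was -0.10 on ANAC004 (SE 0.29) and -0.25 on ANAC048 (SE 0.15). In the line labelled anac004 it was -0.07 for ANAC001 (SE 0.16) and 0.13 for ANAC048 (SE 0.16). In the line labelled anac048 it was -0.10 for ANAC001 (SE 0.15) and 0.13 for ANAC004 (SE 0.31), none past the test. By DESeq2 0 of these tests passed as well.

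Among the 46 other genes tested, anac001 gave 2 calls at 14 d and 0 at the other ages, averaged or for the change with age, where 1.42% of the 2256 pairs were called at 14 d. Both were lower and are named here after their values were seen. ANAC081, or ATAF2, stood at 526.2 and 549.5 normalised counts against 1997 and 886 in Col of the letter (log2 change -1.29, SE 0.32, edgeR adjusted p = 0.0149). ANAC082, which acts in the ribosomal stress response, stood at 601 and 609 against 1010 and 812 (-0.62, SE 0.17, adjusted p = 0.032). The Col samples of the letter differed from each other for ANAC081, and without Col B1 of 14 d both calls ended (ANAC081 -0.82, edgeR adjusted p = 0.753; ANAC082 -0.55, adjusted p = 0.376). Both ended as well with TMM, where ANAC081 stood at -0.70 (edgeR adjusted p = 0.313) and ANAC082 at -0.08 (0.998). With DESeq2 ANAC081 was still called (-0.81, DESeq2 adjusted p = 0.034) and ANAC082 was not (-0.18, 0.900). Other settings that ended both were no letter covariate (-0.72 and -0.44), no UBQ10 (-1.13 and -0.44), a geometric reference mean (-1.25 and -0.56), no shallow libraries (-1.26 and -0.61), and leaving out the first (-1.29 and -0.59) or the second (-1.40 and -0.63) sample of each line. At 14 d, 35 of the 46 genes lay below Col in anac001, with a median log2 change of -0.27. The lines labelled anac004 and anac048 gave 0 calls at any age, averaged or for the change with age. At 26 d, 5 and 3 of their 46 tests had an unadjusted p under 0.05, and the smallest edgeR adjusted p was 0.129 and 0.424; DESeq2 gave 0 calls per age in both.

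The last comparison follows the 3 genes over the 48 lines not named after them. Few lines passed the test for any of the 3: averaged over the ages, ANAC001 ran from -0.51 in anac052 to 0.71 in anac090 with a median of -0.05 and an SD of 0.20 over lines. ANAC048 ran from -0.56 in anac056 to 0.57 in anac035 with a median of 0.00 and an SD of 0.22, and ANAC004 from -0.88 in anac052 to 0.81 in anac090 with a median of -0.08 and an SD of 0.32. Averaged effects were called in 1.15% of all pairs, and here in 3 of 144: ANAC001 in anac090, ANAC048 in anac035 and ANAC048 in anac056. Per age the background was 1.42% at 14 d, 0.222% at 18 d, 0.133% at 22 d and 0.355% at 26 d. Of the 144 tests at each age, 4 passed at 14 d, 0 at 18 d, 0 at 22 d and 1 at 26 d. The change of an effect from 14 to 26 d was called in 0.133% of pairs and in 0 of the 144 here, of which 11 had an unadjusted p under 0.05; DESeq2 called 0 too.

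**Figure D4:**
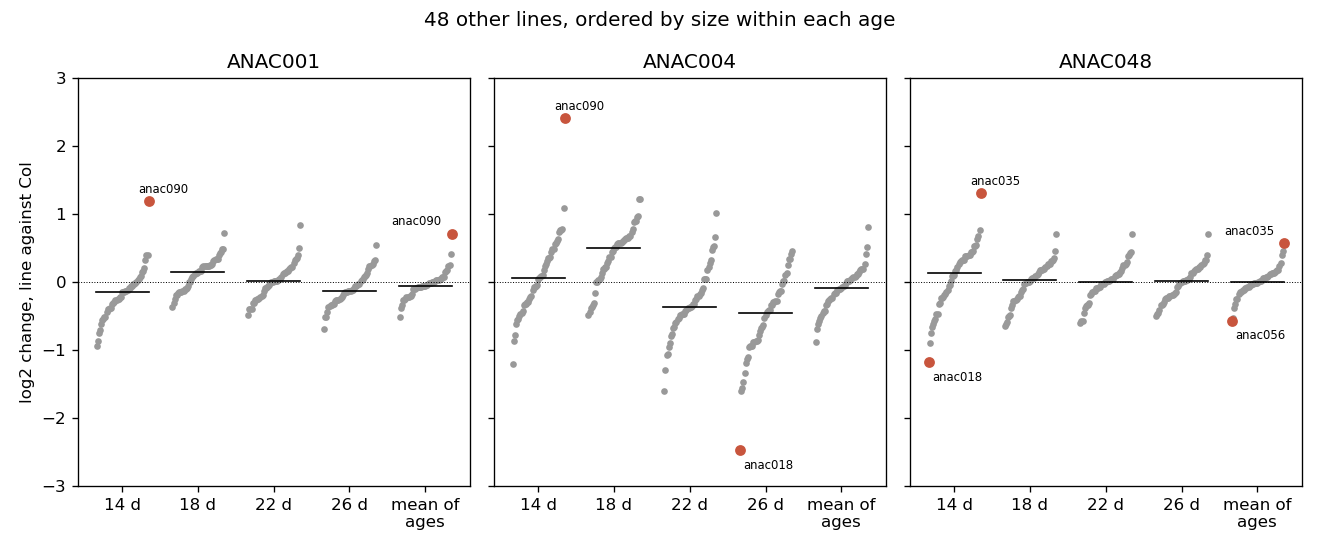
Log2 change of ANAC001, ANAC004 and ANAC048 against Col of the same age (vertical axes), from the fit with a letter term, in the 48 lines named after other genes. Each point is a line, ordered by size within each leaf age and for the mean of the ages. Black bars are medians, and red points with names passed the edgeR test. ANAC001 and ANAC004 in anac090 at 14 d (1.197 and 2.42) and ANAC004 in anac018 at 26 d (-2.47) stand farthest from the other lines.

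ANAC001 rose in anac090, a line of letter C whose target gene is known to delay leaf senescence and was itself called lower from 18 d on but not at 14 d (-0.38, edgeR adjusted p = 0.619). The line held 264 and 193 normalised counts of ANAC001 at 14 d against 109.8 and 89.8 in Col of the letter, 254 and 339 at 18 d against 196 and 164, 376 and 305 at 22 d against 196 and 183, and 301 and 250 at 26 d against 241 and 278. Both line samples lay above Col of the letter at 14, 18 and 22 d and overlapped it at 26 d. The averaged log2 change was 0.71 (SE 0.15, edgeR adjusted p = 0.0010). It was 0.40 with TMM (edgeR adjusted p = 0.078) and 0.36 with DESeq2 (adjusted p = 0.157), and 0.63 and 0.78 without the first and the second sample of each line (edgeR adjusted p = 0.238 and 0.051), past the test in none of these. At 14 d alone it was 1.197 (SE 0.31, edgeR adjusted p = 0.0166), and all Col at that age ran up to 228. The call at 14 d ended with TMM (0.63, edgeR adjusted p = 0.313), DESeq2 (0.68, DESeq2 adjusted p = 0.234), a geometric reference mean (1.21), no UBQ10 (1.17) and limma (1.22 on background-subtracted counts and on the authors' values). It ended too without Col C1 (1.35, edgeR adjusted p = 0.068) or C2 (1.06, 0.290) of 14 d, the first (0.96) or the second (1.41) sample of each line, and the letter covariate (0.54, adjusted p = 0.384).

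ANAC004 also rose in anac090 at 14 d, to 161 and 127 normalised counts against 30.6 and 23.3 in Col of the letter (log2 change 2.42, SE 0.61, edgeR adjusted p = 0.0174). All Col ran from 23.3 to 151 at that age, and without the letter covariate the change was 0.91 (edgeR adjusted p = 0.446). The 7 lines of letter C other than the one labelled anac004 all lay above Col for ANAC004 at 14 d, with a median of 0.64, and they share the same 2 Col samples. Without Col C1 or C2 of 14 d the call ended (2.62 and 2.23, edgeR adjusted p = 0.112 and 0.290), as it did with TMM (1.85, adjusted p = 0.087), without UBQ10 (2.39, 0.075) and without the first sample of each line (2.23, 0.095). At 18, 22 and 26 d the change in anac090 was 0.96, 0.29 and -0.40, none past the test; that from 14 to 26 d was -2.82 (edgeR adjusted p = 0.401).

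ANAC004 fell in anac018 at 26 d, to 40.6 and 51.3 normalised counts against 252 and 299.9 in Col of the letter and 72.0 to 299.9 in all Col (log2 change -2.47, SE 0.58, edgeR adjusted p = 0.0212). The target of this line, ANAC018 or NARS2, known for its part in seed coat development, was lower at all 4 ages, with -1.24 at 26 d. All 18 lines of letter B lay below Col for ANAC004 at 26 d, with a median of -0.90, and share 2 Col samples that were high among the 8. Without Col B1 or B2 of 26 d the value was -2.49 and -2.33 and the call ended (edgeR adjusted p = 0.059 and 0.112), and without the first or second sample of each line it was -2.49 and -2.58 (0.057 and 0.122). Fitted per age the value was the same and the call ended (edgeR adjusted p = 0.340).

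ANAC048 fell in the same line at 14 d, to 74.4 and 68.4 normalised counts against 147 and 165 (log2 change -1.18, SE 0.31, edgeR adjusted p = 0.0268). All Col ran from 49.7 to 165 at that age, so both line samples lay within its range, and letter B had the highest Col mean (156). Of the 18 lines of letter B, which share these 2 Col samples, 5 lay above Col for ANAC048 at 14 d, with a median of -0.23. The call ended with TMM (-0.58, edgeR adjusted p = 0.900), DESeq2 (-0.60), without the letter covariate (-0.62) and without shallow libraries (-1.23), of which the first sample of anac018 at 14 d is one. It also ended with a geometric reference mean (-1.15), without UBQ10 (-1.03) and with a fit per age (-1.18). It ended likewise without Col B1 (-1.24) or B2 (-1.16) of 14 d and without the first (-1.16) or second (-1.16) sample of each line.

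In anac056, ANAC048 lay below both Col samples of letter B at all 4 ages. The line held 95.4 and 108 normalised counts at 14 d against 147 and 165, 179.8 and 159 at 18 d against 259 and 203, 183 and 235 at 22 d against 302 and 268, and 227 and 173 at 26 d against 253 and 250.1. All Col ran from 49.7 to 165, 140 to 415, 222 to 385 and 184 to 279 at the successive ages, so the line overlapped it at each. The averaged log2 change was -0.56 (SE 0.15, edgeR adjusted p = 0.036). ANAC056, or NARS1, a close relative of ANAC018, was itself called lower in this line at 22 d (-0.59) and averaged (-0.42, edgeR adjusted p = 3.3e-04). The averaged call on ANAC048 ended without Col B1 of 18 d (-0.56, edgeR adjusted p = 0.052), Col A1 of 22 d (-0.53, 0.055), the first (-0.53) or the second (-0.55) sample of each line, the letter covariate (-0.37, 0.144), and with TMM (-0.54, 0.100) and DESeq2 (-0.46, 0.288). ANAC048 in anac018, whose averaged change was -0.53, did not pass the averaged test (edgeR adjusted p = 0.064).

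ANAC048 rose in anac035, a line of letter D. Its target, ANAC035 or LOV1, known to delay flowering, was lower at 14, 18 and 22 d. At 14 d the line held 173 and 153 normalised counts of ANAC048 against 81.2 and 49.7 in Col of the letter (log2 change 1.31, SE 0.33, edgeR adjusted p = 0.0149). At 18 d it held 200.3 and 169 against 140.1 and 158, at 22 d 372 and 355 against 246 and 305, and at 26 d 213 and 344 against 184 and 276, so both samples lay above Col of the letter at the first 3 ages. The averaged change was 0.57 (SE 0.16, edgeR adjusted p = 0.046). All 5 lines of letter D lay above Col for ANAC048 at 14 d, with a median of 0.53, and all Col ran up to 165 at that age. Without the letter covariate the change was 0.58 at 14 d (edgeR adjusted p = 0.387) and 0.15 averaged (0.645). Without Col D2 of 14 d it was 1.005 at that age (edgeR adjusted p = 0.425) and 0.50 averaged (0.234), and without the first or second sample of each line the call ended at 14 d (1.22 and 1.39) and averaged (0.59 and 0.53). Without UBQ10 the call at 14 d ended as well (1.31, edgeR adjusted p = 0.075). The averaged call also ended without Col D1 (0.55) or D2 (0.60) of 18 d, D1 of 22 d (0.54) or D1 of 26 d (0.51).

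Both samples of a line lay above every Col sample of their letter and age in 7.29% of the 192 combinations of line and age for ANAC001, 14.6% for ANAC004 and 19.3% for ANAC048, against 15.7% over all pairs. They lay below every such sample in 19.8%, 26.0% and 16.7%, against 12.4%. Lines of a letter share their Col samples, so these combinations are not independent. None of the 6 lines of the membrane-tethered list and none of the 13 lines of the senescence-promoting list changed the averaged level of any of the 3 genes past the test, with median effects from -0.07 to 0.07 log2.

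ANAC004 was the most variable of the 3 between samples of a group. The SD within groups, pooled on the log2 scale, was 0.66 at 14 d, 0.43 at 18 d, 0.70 at 22 d and 0.72 at 26 d, against a median of 0.37, 0.33, 0.42 and 0.41 over the 47 genes, and ranked 7, 18, 9 and 10 from the highest. For ANAC001 the SD was 0.37, 0.37, 0.30 and 0.27, and for ANAC048 0.38, 0.32, 0.38 and 0.27. Part of this spread followed the sample number within a letter. For ANAC004 the first sample exceeded the second in 16 of 18 lines of letter A at 14 d, with a median difference of 0.75 log2. It fell below the second in 16 of 18 at 22 d, with a median of -0.71, in 12 of 18 at 18 d and in 9 of 18 at 26 d. The shift at 22 d was shared: the median over the 47 genes was lower in the first sample in 17 of 18 lines (-0.29). At 14 d that median was lower in 7 of 18 (0.03). At 22 d the mean of the references also differed between the numbers of letter A. The median was -2.33 log2, and the first sample was lower in 15 of 18 lines. Some of these first samples held few raw counts of ANAC004, such as 6 in anac053 and 7 in anac082, where that of anac079 held 42. Over all samples a negative control probe held 5.19 on average. The part of the reference mean and of the low counts in the ANAC004 difference was not tested.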

How the data were processed

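Counts of 67 probes (49 NAC genes, 4 references, 8 negative and 6 positive controls) were used as deposited by the authors, raw and not normalised. The deposited log2 values, made in a way the labels do not state, served as an alternative (r of 0.990 or more with the counts over 434 samples). The genes and lists were chosen with earlier results of these data known. Genes with a mean raw count above 12.6 (negative probes' mean plus 2 SD) were kept, 47 in all. The fold changes come from 1 edgeR 4.0.16 quasi-likelihood model (R 4.3.3) with a mean per genotype and age. It had a letter term within age and the log mean of the references as offset. The letter term was estimated from Col and from anac092, which stood under A and B. Line effects under A and B thus also draw on anac092 and on Col of the other of these letters. They are not exactly differences from Col of the line's own letter. Benjamini-Hochberg adjustment ran over 47 genes for ageing, 188 tests for own effects per age, 47 for their averages and changes, and 2256 pairs of line and other gene; calls are adjusted p under 0.05. Correlations used log2(normalised count + 1). UBQ10 made up 80.6% of reference counts (median). Alternatives included TMM, DESeq2 1.42.0 (fitted per age and joined, with size factors from the NAC genes over all samples), limma 3.58.1, and other references and filters. Each Col sample was left out in turn, as was the first or the second sample of every line. No samples of a group had identical counts in 345 pairs. Genes were named by rule as the 3 members, their 3 closest genes, and every line called; others are marked where named. The fit was also run on simulated counts with the same dispersion for all genes and no letter effects. Only averaged line effects were scored there, so it does not check the effects per age.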

Additional observations from a re-analysis of the deposited data

Results flagged for a closer look

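ANAC048 in Col at 26 d had 1 sample apart from the other 7: Col D1 held 184.4 normalised counts and the others 246.8 to 279.3. It was 1 of 24 groups of 4 to 10 samples tested for such a gap, and chance gives about 1 in 20. Without Col D1 of 26 d, ANAC048 rose by 1.37 log2 from 14 to 26 d in place of 1.31.

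The effect of the line labelled anac004 on its own target differed between 14 and 26 d by -2.25 log2, and that of the line labelled anac048 by -1.85 log2, each past the test of the difference itself. In both lines the 14 d effect was above 0 (1.21 and 2.17), and both share the Col samples of letter C. At 14 d these had the lowest mean of ANAC004 among the letters (27.0 normalised counts). Their mean of ANAC048 was 92.1 and not the lowest, which was 65.5 under D. Leaving out Col C1 or C2 of 14 d ended the call in the line labelled anac004. In the line labelled anac048 the call held without each Col sample. The part of these Col samples in the differences was not tested beyond leaving each out.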

How the results depend on the processing

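Of 49 settings, 36 left out replicates: either a single Col sample, or the first or the second sample of every line at once. Ranges without a replicate cover both kinds. The lowest counts of lines called on average for ANAC001 and ANAC048 came only from the latter kind. ANAC001 in wild type reversed at 22 and 26 d with TMM (-0.12, -0.10) and DESeq2 (-0.20, -0.22), and ANAC004 lost its calls with DESeq2 (0.50, 0.55). Within letters, the rise to 26 d moved for ANAC001 under C (1.37), ANAC004 under D (0.42) and ANAC048 under B, C and D (0.69, 1.58, 1.81). The own change of ANAC001 with age was called with limma (1.57 on background-subtracted counts, 1.29 on the authors' values). That of ANAC004 ended with a geometric reference mean (-2.18), without UBQ10 (-2.11), with a filter at 100 counts (-2.25), without the letter (-1.35) and with limma (-2.27, -2.32). Without the letter, ANAC004 in the line labelled anac004 was called at 26 d (-1.65) and averaged (-0.54). Leaving out replicates gave 1.03 to 1.42 for the own effect of ANAC004 at 14 d, -1.59 to -0.18 at 26 d and -2.80 to -1.40 for its change. The change was -2.46 and -2.06 without Col C1 and C2 of 14 d. Without the first sample of each line the own effect was 1.06 at 14 d and the change -1.98. Without the second the change was -2.52. For ANAC048 at 18 d the range was 0.28 to 0.93.

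Lines called on average numbered 1 for ANAC001 (2 without the letter, 0 to 2 without a replicate), 0 for ANAC004 (1 with DESeq2, 0 to 1 without a replicate) and 2 for ANAC048 (1 with TMM or DESeq2, 4 without shallow libraries, 0 to 4 without a replicate). Calls per line and age numbered 1 for ANAC001 (0 with TMM, DESeq2, limma, a geometric mean or no UBQ10, 0 to 2 without a replicate). They numbered 2 for ANAC004 (1 with TMM, no UBQ10, no letter or a fit per age, 0 to 2 without a replicate) and 2 for ANAC048 (1 with TMM, DESeq2, a geometric mean, a fit per age or no shallow libraries, 0 without UBQ10 or the letter, 0 to 2 without a replicate). The panel gave 2 calls in anac001, 1 with TMM (of another gene, with 0 of the 2 shared), 0 with a geometric mean, no UBQ10, no letter or no shallow libraries, and 0 to 3 without a replicate. DESeq2 gave 2, of which 1 was shared. The line labelled anac004 gave 0, and 0 to 1 without a replicate.

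The labels do not say that sample numbers pair samples. Of 1648 same-numbered pairs 1052 had r above 0.1, with a range of -0.771 to 0.927, among them 15 of 15 in letter D at 26 d, 34 of 36 in letter C at 14 d and 14 of 36 in letter C at 26 d. Since not every pair passed, the numbers were not used as pairs. With a replicate block of letter and number, ANAC004 in the line labelled anac004 was called at 14 d (1.24). With that block, lines called on average numbered 2, 1 and 5 for ANAC001, ANAC004 and ANAC048, calls per age for ANAC001 2, and panel calls 4, 1 and 1 in the 3 lines; other calls on the 3 genes' own and wild-type effects did not change.

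Depth limits ANAC001 in anac001, at 2 to 27 raw counts, and 2 samples per line and age limit every line effect.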

Other observations

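The sample number within a letter also went with the level of ANAC004 at some ages outside letter A. In letter C at 14 d the first sample was the higher in 7 of 7 lines, with a median difference of 1.004 log2. In letter D at 26 d it was the lower in 5 of 5 lines, with a median of -1.18. There ANAC001 (-0.52) and ANAC048 (-0.56) were lower in 5 of 5 as well, as was the median over the tested genes (-0.21). In letter C at 14 d the median over the tested genes differed by 0.06. Other cells were mixed: in letter C at 18 d the first sample of ANAC004 was the lower in 3 of 7 lines. Over all 434 samples, deviations of ANAC004 from group means correlated most with those of ANAC061 (r = 0.59), ANAC042 (0.59) and ANAC090 (0.59), those of ANAC001 with ANAC042 (0.66) and those of ANAC048 with ANAC056 (0.39). These samples share the reference scale and the letters, so the values are descriptions.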
